A study of Caenorhabditis elegans with 2 samples.

Results

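The 4 genes described here, bed-1, bed-2, bed-3 and dpy-20, encode BED zinc finger proteins of the nematode Caenorhabditis elegans. They were taken by name, each with 2000 bp on both sides, and are 4 of 46890 annotated genes and 4 of 19973 protein-coding genes. The measurement was where the BED-2 protein itself was found on them. Chromatin was pulled down and sequenced (ChIP-seq, chromatin immunoprecipitation and sequencing), with an antibody against green fluorescent protein on whole young adults, 63 hours old, of strain RW12335. Its bed-2 gene on chromosome III carries a CRISPR insertion that adds TY1, EGFP and 3xFLAG tags (TY1::EGFP::3xFLAG::bed-2), so the tagged protein is made from the gene's own locus. The labels do not say which isoforms carry the tag, or in which tissues. The animals had been bleached and starved at the L1 stage to synchronise them. The labels give this 1 group, with 2 biological replicates. An untagged strain and the input control were not analysed here, and the peaks come from whole animals, so binding in few cells and weak binding in many cannot be told apart.

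A BED finger is a zinc-coordinating DNA-binding domain named after the Drosophila proteins BEAF and DREF, which bind near gene starts and at chromatin boundaries. BED proteins are often related to transposon-derived proteins. In C. elegans, bed-3 is known for its role in vulval cell divisions and in moulting. The gene dpy-20 is named for the short, fat (dumpy) body of its mutants and is widely used as a marker in making transgenic worms. No role is given here for bed-1 or bed-2 beyond the domain.

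The deposited lists hold ranked peaks, called candidates below, each with a summit, a signal value from the authors' peak caller whose scale is not given, and a score made from the irreproducible discovery rate (IDR). The IDR asks how alike a peak is ranked in a pair of lists. A candidate is said to pass where its global IDR is at most 0.01, which lies at a score of 830; the score is rounded, so candidates with exactly 830 fall on both sides in the series list. The series list, built from both replicates, holds 82301 candidates, of which 635 pass. The list of replicate 1 holds 49450, of which 255 pass, and that of replicate 2 holds 49720, of which 269 pass. Signals are used to rank peaks within a list, and ratios between the replicates are descriptions on a scale that is not known to be the same in both. With no read counts in these lists, the depth is unknown, and with 1 group and no control analysed here no test was made.

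The sequences shown first lie under high candidates outside untranslated regions, from the RefSeq genome of ce11 (WBcel235). The highest candidate of dpy-20 and the second highest of bed-2 lie in untranslated exons and are not printed. The first is the only place at these genes where BED-2 passed the threshold. It lies upstream of bed-1 and runs into a tRNA gene, WBGene00014567, a tRNA for phenylalanine. It is given on the plus strand at V:19125984-19126116, with the tRNA gene in capitals and the summit at base 35.

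bed-1 upstream, tRNA-Phe: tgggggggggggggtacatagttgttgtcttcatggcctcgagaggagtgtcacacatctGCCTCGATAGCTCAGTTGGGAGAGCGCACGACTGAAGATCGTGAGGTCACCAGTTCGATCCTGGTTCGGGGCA

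The second highest candidate of bed-1 lies in its intron 1, at V:19123806-19123906 on the minus strand, and is shown because it is a tandem repeat. Capitals mark a word of 14 bases that occurs 3 times in this window.

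bed-1 intron 1: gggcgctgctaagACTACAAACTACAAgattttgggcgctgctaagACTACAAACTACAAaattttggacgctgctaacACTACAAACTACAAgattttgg

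At bed-2 the highest window lies in a coding exon (III:11464976-11465076, minus strand) and another in the first exon of the short isoform (III:11466590-11466690, minus strand). At bed-3 the highest window is also coding (IV:9919801-9919901, plus strand). Each shows 101 bases with the summit in the middle, and none of them holds any of the 4 motifs searched below, so nothing is in capitals.

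bed-2 exon 6: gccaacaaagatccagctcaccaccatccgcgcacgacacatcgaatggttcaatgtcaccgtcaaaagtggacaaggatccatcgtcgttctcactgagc
bed-2 short isoform exon 1: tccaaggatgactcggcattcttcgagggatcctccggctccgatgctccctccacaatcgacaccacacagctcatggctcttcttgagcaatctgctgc
bed-3 exon 5: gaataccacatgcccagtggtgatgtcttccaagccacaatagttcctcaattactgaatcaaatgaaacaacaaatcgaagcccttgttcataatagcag

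Of the 4 BED finger genes, 1 had a passing summit, and it was bed-1. Among all protein-coding genes 4.84% had one within the same distance, and among all annotated genes 3.36% did. In the list of replicate 1, 0 of the 4 genes had a passing summit, against 2.21% of protein-coding genes. In the list of replicate 2, 1 of the 4 did, again bed-1, against 2.28%. At a looser global IDR of 0.05 the count stayed at 1 of 4, with 2 peaks, both at bed-1, against 9.34% of protein-coding genes. The tagged gene bed-2 had no peak at either threshold.

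The series list held 42 candidates at the 4 genes, 9 at bed-1, 17 at bed-2, 10 at bed-3 and 6 at dpy-20. Some of them overlap, and with overlapping peaks merged the 42 became 35. Counts and densities given here take each candidate singly. Replicate 1 had 6, 11, 3 and 3 candidates at bed-1, bed-2, bed-3 and dpy-20, and replicate 2 had 3, 12, 5 and 2. Per kb of gene and flanks the series count came to 0.958 at bed-1, 1.53 at bed-2, 1.06 at bed-3 and 0.712 at dpy-20, against a median of 0.880 over protein-coding genes. The density at bed-2 was exceeded by 6.98% of protein-coding genes. It counts candidates whatever their score, and several at bed-2 had a score of 29, the lowest among the 42. Of the 42 summits, 26 lay inside the genes, 8 upstream and 8 downstream.

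**Figure D1:**
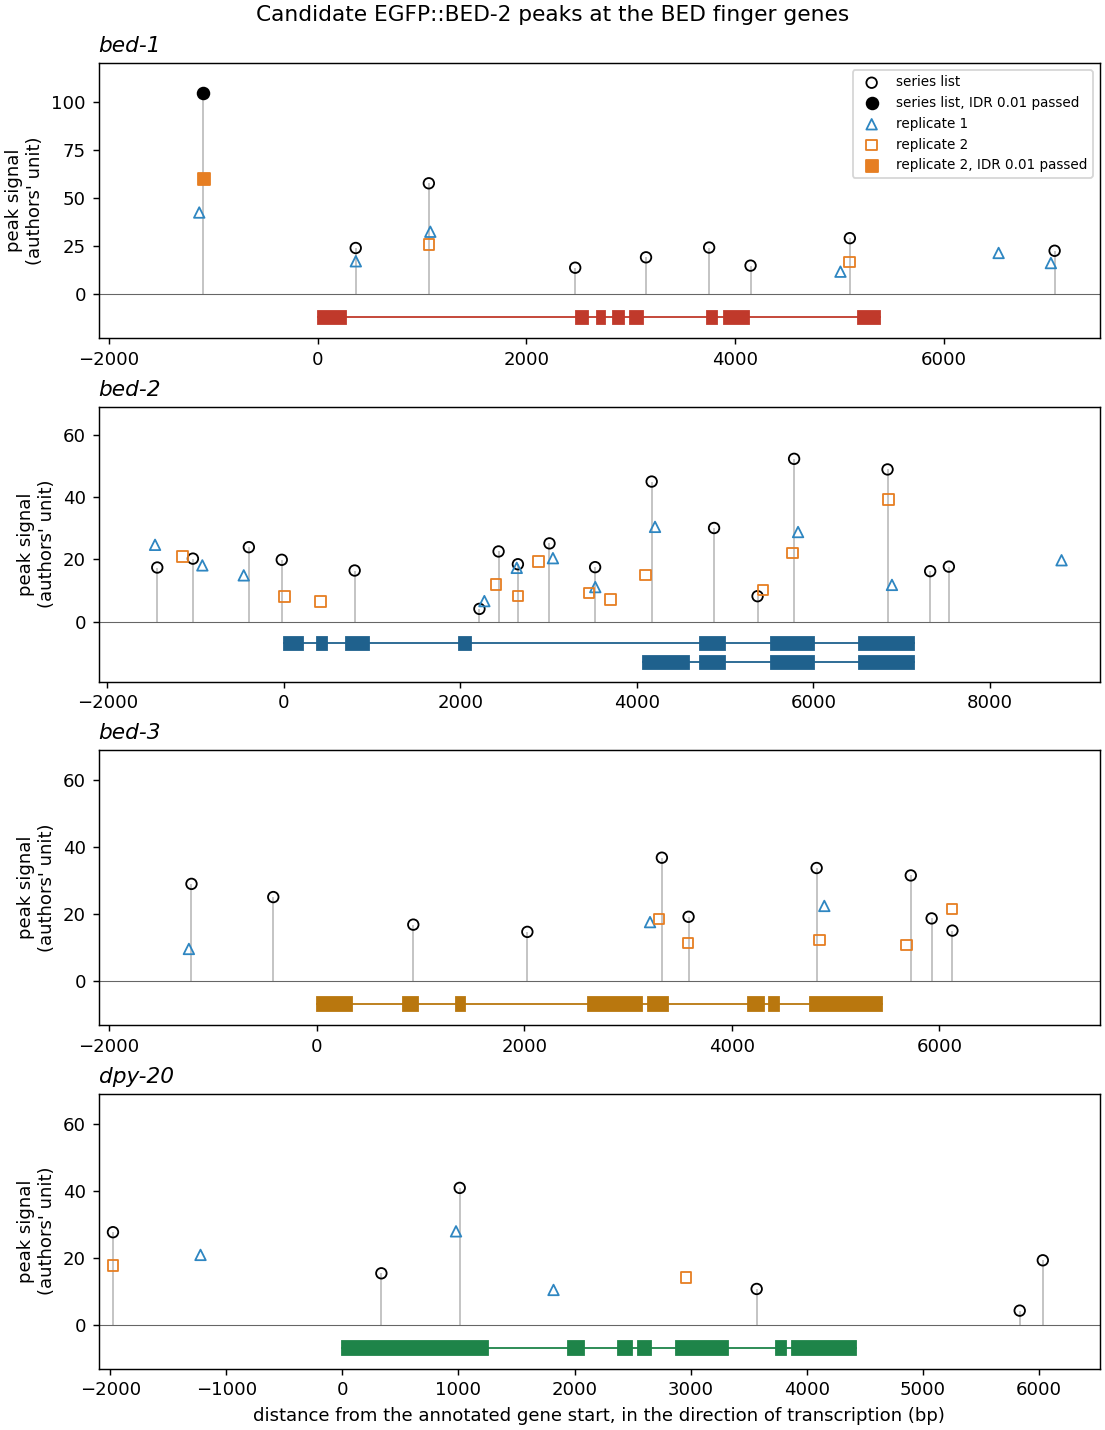
Peak signal (vertical axis, in the unit of the authors' peak caller) of every candidate at the 4 genes against the distance of its summit from the annotated gene start in bp; circles are the series list, triangles replicate 1, squares replicate 2, filled where the global IDR was at most 0.01, with exons drawn as boxes below (long and short isoform for bed-2). The single filled site is the bed-1 candidate 1096 bp upstream, and the higher candidates of bed-2 lie in the 3′ part of the gene.

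The gene bed-1 (WBGene00012674, V:19119527-19124922, minus strand) carried the peak that passed. It spans V:19125858-19126177 with the summit at 19126018, and its signal was 104.5 in the series list, rank 180 of 82301, with the highest possible score of 1000. In replicate 1 the overlapping peak had a signal of 42.5, rank 337 and a score of 735, so it did not pass there. In replicate 2 it had a signal of 59.7, rank 166 and a score of 1000. Both replicates thus placed the site high in their lists, but on either side of the threshold.

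This summit lies 1096 bp upstream of the start of bed-1, but only 26 bp upstream of the start of the tRNA gene WBGene00014567 (V:19126044-19126116, plus strand, 73 bp). A noncoding RNA gene on the minus strand, Y39B6A.70, covers the same bases, and its edge is 25 bp away. The protein-coding gene dyf-17, named for a dye-filling defect of sensory cilia, starts 1507 bp away on the other side and shares the peak. The peak therefore has 4 candidate genes, and the lists do not assign it to one. With 1000 bp instead of 2000 bp around each gene, no BED finger gene had a passing summit.

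A tRNA gene is transcribed by RNA polymerase III from promoter elements inside the gene itself. Of the 635 passing peaks, 43 had their summit within 100 bp of a tRNA start, with a median signal of 87.6 and a range of 5.07 to 124.8. Neighbouring peaks were counted singly, so the 43 need not be separate sites. The share among all series candidates is not given here, so 43 of 635 is not read as high or low. The bed-1 peak was the 4th highest of these 43. The tRNA gene next to bed-1 holds GTTCGANNC, letters of the loop around the internal B box, starting at its base 53, as do 72.1% of the 612 annotated tRNA genes. Of the 612, 2 have exactly this sequence, this gene included. No annotated tRNA start lies in the windows of bed-2, bed-3 or dpy-20, and 3.03% of protein-coding genes have one in theirs. Among the 967 protein-coding genes with a passing summit, 33.2% had it nearest to a start of their own and 6.31% had it nearest to a tRNA start, as bed-1 did. The 3.03% counts any tRNA start in a window, a different measure, so the 6.31% is not read against it.

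The second candidate of bed-1, in intron 1 and 1059 bp into the gene, had a signal of 57.7 in the series list, rank 1297, and a score of 554. Replicate 1 gave 32.5 there (rank 933, score 227) and replicate 2 gave 25.8 (rank 6002, score 19), so it stood higher in replicate 1. This is the repeat printed above. Over the 320 bases of the peak, 73.9% of bases equal the base 33 positions on. Every 25-base word of the 101-base window occurs elsewhere in the genome, which holds for 1.66% of all series candidates and 4.41% of passing ones. The 14-base word in capitals occurs 56 times in bed-1 and 3169 times in the 6 chromosomes, counted on both strands. How the authors treated reads that map to several places is not given in the sources used here, and its part in this peak was not tested.

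The 14-base word is also found in intron 7 of bed-1, under a candidate with a signal of 29.2 (replicate 1 11.8, replicate 2 16.7). That summit lies 395 bp upstream of the start of another gene, Y39B6A.13, which is the nearest start. There, 62.3% of the 25-base words occur elsewhere. Among the 42 windows at the 4 genes 7 (16.7%) held any such word, against 19.6% of all series candidates. The remaining 7 candidates of bed-1, the one in intron 7 included, had signals of 29.2 or less in the series list. Of its 9 candidates, 4 had no overlapping peak in either replicate, and 6 had their nearest start at another gene.

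The tagged gene bed-2 (WBGene00012943, III:11463665-11470808, minus strand) had the most candidates, yet none passed. Its annotation gives a long isoform, Y47D3B.9a.1, and a short one, Y47D3B.9b.1, whose start lies inside intron 4 of the long one. The highest candidate, in coding exon 6 of the long isoform (exon 3 of the short one), had a signal of 52.2, rank 2058, and a score of 359. The replicates gave 28.7 (replicate 1, rank 1661) and 22.0 (replicate 2, rank 11173).

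A second candidate, in the 3′ untranslated region, had a signal of 48.8 in the series list, rank 2818, but a score of 74. In the other deposited series list its score was 483. Here the replicates stood far apart, at 11.8 in replicate 1 (rank 32418) and 39.2 in replicate 2 (rank 821). Its log2 ratio of replicate 2 over replicate 1, 1.74, was the highest among the members' candidates with a peak in both. Its window also had the highest share of G and C bases among the 42, 63.4%, against a median of 40.6% over all series candidates and 50.5% over passing ones.

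Another candidate, 101 bp inside the first exon of the short isoform, went the other way. Its signal was 44.9 in the series list (rank 4207, score 118), with 30.4 in replicate 1 (rank 1254) and 15.0 in replicate 2 (rank 28494). The log2 ratio of -1.02 was the lowest among the members when the strongest overlapping peak of each replicate was taken. The strongest bed-2 candidate is thus a different one in each list: exon 6 in the series list, the start of the short isoform in replicate 1 and the 3′ untranslated region in replicate 2.

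By contrast, the start of the long isoform had low candidates, 19.8 at 24 bp upstream and 23.9 at 397 bp upstream, close to the median series signal of 21.0. Neither had a peak in both replicates. Within intron 4, upstream of the short isoform, lay 5 candidates with signals of 4.07 to 25.1, each overlapped by a peak in both replicates. The strongest overlapping peaks had 6.57 to 20.3 in replicate 1 and 9.21 to 19.2 in replicate 2. Weaker replicate 2 peaks of 7.07 and 8.16 also overlapped candidates in this intron. The one of 8.16 has the same summit as the candidate of 18.4. That intron also holds 5 annotated noncoding RNA genes, Y47D3B.15, Y47D3B.16, Y47D3B.20, Y47D3B.23 and Y47D3B.24. The strongest of the 5 candidates, with a score of 205, lies 9 bp from the start of Y47D3B.23. Further upstream, candidates lay at the noncoding RNA genes Y66A7AL.2 (20.2) and Y66A7AL.1 (17.3). Of the 17 candidates of bed-2, 10 were overlapped in both replicates, although neighbouring candidates can share 1 replicate peak.

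The gene bed-3 (WBGene00009133, IV:9916524-9921967, plus strand) had no passing candidate. The highest, in coding exon 5, had a signal of 36.9 (rank 9888), with 17.7 in replicate 1 and 18.6 in replicate 2, and it lies 232 bp from the start of the noncoding RNA gene F25H8.8, which runs antisense inside bed-3. The next, in exon 8, had 33.8 in the series list, 22.5 in replicate 1 and 12.4 in replicate 2. Upstream, candidates of 25.1 at 417 bp and 29.1 at 1205 bp lie at the noncoding RNA genes F25H8.15 and F25H8.13. Neither upstream candidate had a peak in both replicates. The overlapping gene dur-1, on the opposite strand and sharing 30 bases with the end of bed-3, holds 3 further candidates with a highest signal of 31.6.

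The gene dpy-20 (WBGene00001079, IV:11696430-11700852, minus strand) had the fewest candidates. Its highest lies in the long 5′ untranslated first exon, 1011 bp into the gene, with a signal of 40.8 (rank 6558). Replicate 1 gave 27.9 there (rank 1934), and replicate 2 had no overlapping peak. The candidate 1976 bp upstream had a signal of 27.6, with 17.8 in replicate 2 and no peak in replicate 1; its nearest start, at 957 bp, is that of T22B3.3. None of the 6 candidates was overlapped in both replicates. The neighbour ZK792.7, which shares 35 bases with the end of dpy-20, holds both downstream candidates, of 19.2 and 4.22.

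**Figure D2:**
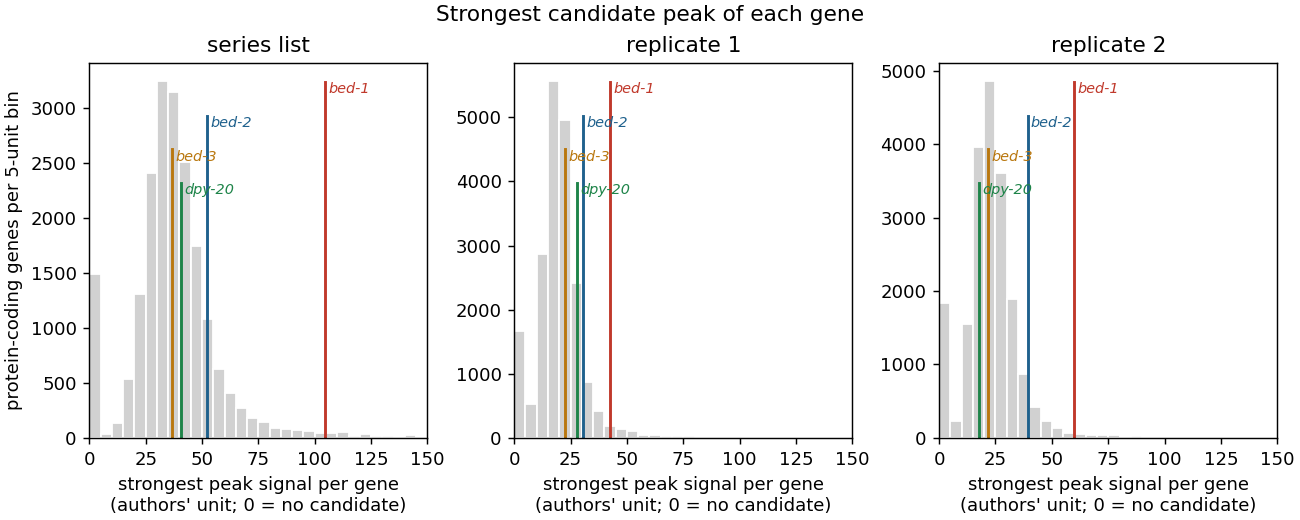
Number of protein-coding genes (vertical axis) by the signal of their strongest candidate within 2000 bp (horizontal axis, unit of the authors' peak caller, 0 where a gene had none), in the series list and in each replicate, with the 4 BED finger genes as coloured lines; signals above 150 are not drawn. bed-1 lies in the upper tail of all 3 distributions, bed-2 on the upper shoulder, and bed-3 and dpy-20 change places between the replicates.

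The order of the strongest signals in the series list was bed-1 (104.5), bed-2 (52.2), dpy-20 (40.8) and bed-3 (36.9), against a median of 36.2 over protein-coding genes. A higher strongest signal was found at 1.73% of protein-coding genes for bed-1, 14.5% for bed-2, 36.3% for dpy-20 and 47.9% for bed-3. In replicate 1 these shares were 2.95% for bed-1, 9.39% for bed-2, 13.6% for dpy-20 and 33.2% for bed-3, and in replicate 2 they were 1.53% for bed-1, 6.26% for bed-2, 72.4% for dpy-20 and 54.5% for bed-3. The first and second places of bed-1 and bed-2 were the same in both replicates. The order of dpy-20 and bed-3 was not, and their difference is within the spread of the replicates. The first place of bed-1 rests on the summit at the tRNA gene. Its next candidate, in intron 1, had 32.5 in replicate 1, against 30.4 for bed-2. In replicate 2 it had 25.8, below the 39.2 of bed-2. At 7144 bp, bed-2 was also the longest of the 4 genes and had the densest window.

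**Figure D3:**
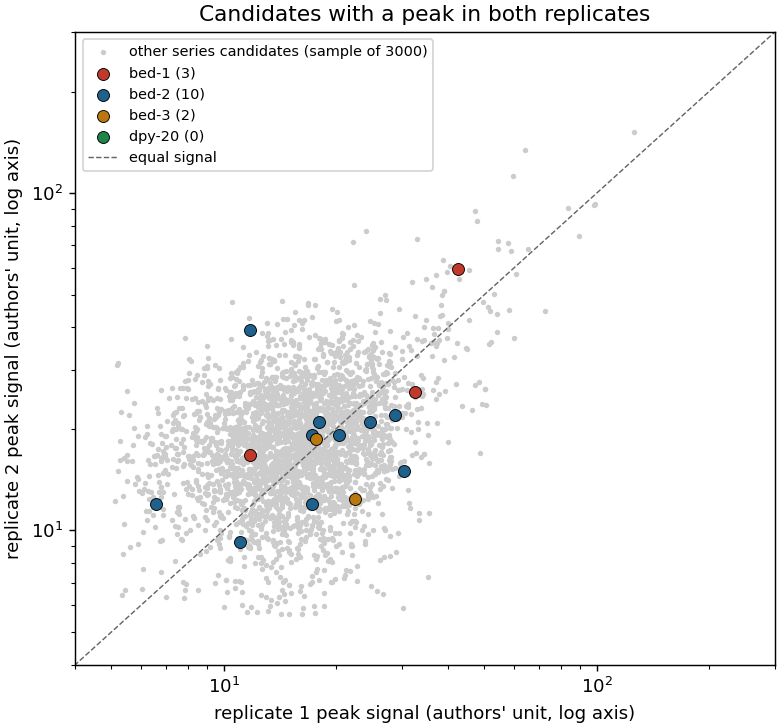
Signal in replicate 2 (vertical log axis) against signal in replicate 1 (horizontal log axis), both in the unit of the authors' peak caller, for series candidates overlapped by a peak in both; grey points are a sample of all candidates, coloured points those of the BED finger genes, and the dashed line marks equal signal. The bed-1 tRNA site is the upper right red point, and the bed-2 3′ untranslated candidate (11.8 in replicate 1, 39.2 in replicate 2) stands above the line.

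Of the 42 candidates, 15 (35.7%) were overlapped by a peak in both replicates and another 15 (35.7%) in neither. Of all series candidates, 33.7% were overlapped in both and 22.2% in neither. The 15 comprised 3 of bed-1, 10 of bed-2, 2 of bed-3 and 0 of dpy-20. For the ratios, the strongest overlapping peak of each replicate was taken. The median log2 ratio of replicate 2 over replicate 1 for these 15 was -0.08, with a range of -1.02 to 1.74. Over all series candidates the median was 0.21.

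Each summit was placed in 1 class, with the promoter, meaning within 1000 bp upstream of any gene's transcript start, taken first. By this rule 15 of the 42 (35.7%) lay in a promoter, against 32.7% of all series candidates and 69.0% of passing ones. Of those 15, 2 also lie in a coding exon of their own gene and 7 in one of its introns. Outside promoters, coding exons held 10 (23.8%), against 26.5% of all and 4.88% of passing candidates. Introns held another 10, and the rest were 3 intergenic, 2 in a 5′ and 1 in a 3′ untranslated region and 1 in a noncoding RNA exon. Windows were taken around genes, and 1 of the 42 passed.

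In 101-base windows around the summits, 4 motifs were searched on both strands, where GTTCGANNC and CGATA can share bases. CGATA, the core letters bound by Drosophila BEAF-32, was in 5 of 42 member windows (11.9%), against 10.5% of all and 10.6% of passing windows. These 5 windows were 3 at bed-1, 1 at bed-2 and 1 at bed-3, and the match in the bed-1 tRNA window lies inside the tRNA gene. ACGCGC was in 1 of the 42, the bed-2 window 397 bp upstream, against 1.91% of all and 13.2% of passing windows. GTACAC was in 0 of the 42, against 2.86% of all and 9.76% of passing windows. GTTCGANNC was in 1 of the 42, the bed-2 window 1435 bp upstream at Y66A7AL.1, against 1.12% of all and 5.35% of passing windows. These matches describe letters only. No source is given here for ACGCGC and GTACAC, so their higher shares in passing windows are not read as a result.

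**Figure D4:**
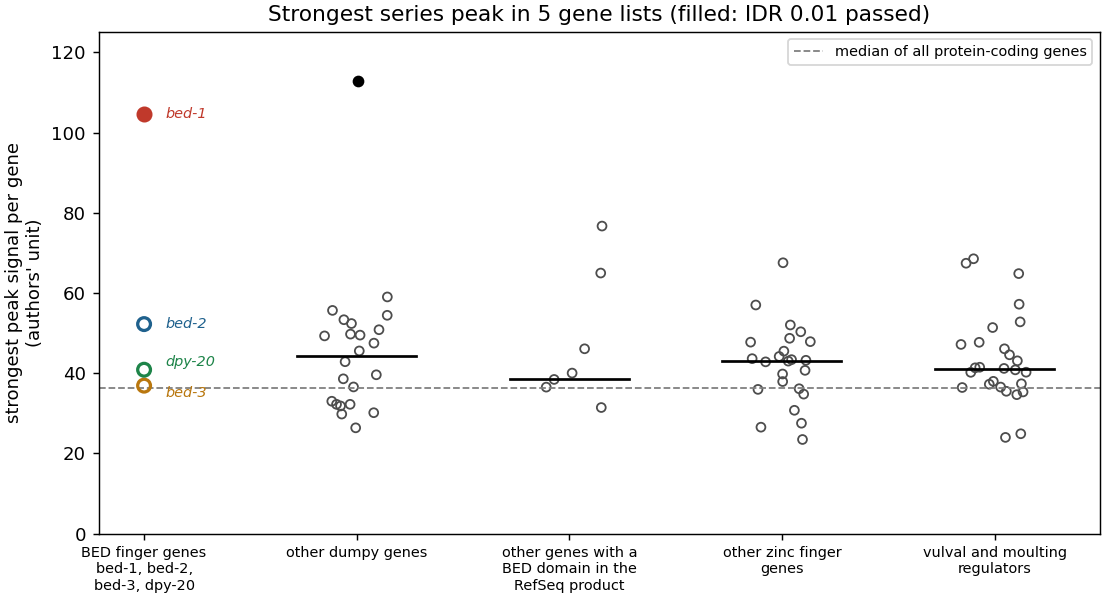
Strongest series signal (vertical axis, unit of the authors' peak caller) of the 4 BED finger genes at the left and of each gene with a candidate in 4 other lists; filled points passed a global IDR of 0.01, bars are list medians with genes without a candidate counted as 0, and the dashed line is the median of 36.2 over protein-coding genes. bed-1 (104.5) and dpy-23 (112.9) are the 2 filled points.

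Other genes whose RefSeq product name holds a BED domain had 0 of 9 with a passing summit, against 4.84% of protein-coding genes, and a median strongest signal of 38.4. The highest were K09A11.1 with 76.7 and a score of 819, just under the threshold of 830, and Y105C5A.15 with 65.0. The summit at K09A11.1 lies 36 bp from a tRNA start, and that at mig-39 (36.5), a gene named for cell migration, lies 10 bp from one. Over all protein-coding genes with a candidate, 1.61% had their strongest summit within 100 bp of a tRNA start. Of the 4 members only bed-1 did, and of the 7 genes of this list with a candidate K09A11.1 and mig-39 did. The candidate at mig-39 had a score of 193, far under the threshold. These cases were picked out after their values were seen, so they are not read as a trait of BED genes. The next in this list were lir-1 (46.1), T10B5.10 (40.0), znf-207 (38.4) and F41B5.1 (31.4).

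Among 24 other dumpy genes, which like dpy-20 are named for body shape and include many cuticle genes, 1 had a passing summit, dpy-23, with 112.9 in the series list, 57.0 in replicate 1 and 54.7 in replicate 2. It encodes an adaptor subunit of vesicle trafficking, and its summit lies 302 bp upstream; the start of the noncoding RNA gene R160.8 is nearer, at 257 bp. That is 4.17% of the list, against 4.84% of all protein-coding genes. The list median was 44.2. The other zinc finger genes named ztf or zbed had 0 of 25 passing, against the same 4.84%, and a median of 42.99, led by ztf-22 with 67.5. Regulators of vulval development, moulting and epidermis, processes in which bed-3 is known, had 0 of 28 passing, against the same 4.84%, and a median of 41.0. Their highest were lin-29 (68.5, score 821), myrf-2 (67.4) and myrf-1 (64.8).

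The protein-coding genes most like each member in all 3 lists were found by the distance of log2 strongest signals over 16997 genes, which are 3 values per gene. For bed-1 they were dyf-17, at distance 0 because it shares the same peak, ets-5 (104.4, 42.6 and 59.0 in the series list, replicate 1 and replicate 2) and pnc-1 (105.2, 43.4 and 61.6). For bed-2 they were neto-1, K03B4.1 and clec-169, for bed-3 C32E8.9, C10G8.2 and C10G8.3, and for dpy-20 vti-1, F19G12.1 and eat-4.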

How the data were processed

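Peaks were deposited by the authors on assembly ce11. A note deposited with the samples states that 1 alignment and a control lie behind every replicate list, and both alignments behind the series lists. Neither the software for alignment nor that for peak calling is given in the sources used here. Each deposited peak has a score derived from its global IDR and a signal value set by the authors' peak caller, and another deposited value is the summit offset. Ranked lists also hold the deposited −log10 of the global IDR, and the score follows from it within 1 in 100% of peaks. All 615 peaks of the thresholded series list were found in the ranked one, where 635 pass, so the passing set used here is larger than the authors' own. The thresholded lists of replicate 1 and replicate 2 hold 238 and 256 peaks, against 255 and 269 passing here. The bed-1 peak that passed is in the thresholded series list. In addition, 2 per-sample columns of the series lists that name no sample were not used.

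A summit belonged to a gene if it lay in it or within 2000 bp, with genes from Ensembl release 115. Sequence and product names were read from RefSeq's WBcel235 genome, which is ce11. A replicate peak matched where it overlapped by at least 1 base, and where several did, the strongest was taken. The gene search was tested on simulated data. Python 3.11.15, numpy 2.4.6 and pandas 2.3.3 were used. Alternatives were other IDR thresholds, flanks, the other series list, merged peaks, ranking by score and each replicate alone. Named genes were the members, other genes with the nearest start within 1000 bp of a member summit, genes overlapping a member, up to 5 passing genes of each list and the 3 most similar genes. Other highest genes of a list, and the BED domain list, were named after their values were seen. The members and lists were chosen with earlier results of these data known. The replicates are labelled as biological replicates.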

Additional observations from a re-analysis of the deposited data

How the results depend on the processing

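The count of BED finger genes with a passing summit stayed at 1 at a global IDR of 0.05 or 0.001, in the other series list and with 5000 bp flanks, was 0 with 1000 bp flanks, and was 0 to 1 in the list of a single replicate. The 42 candidates became 66 with 5000 bp flanks and 22 to 23 in the list of a single replicate. The share of protein-coding genes with a higher strongest signal moved for bed-1 from 1.73% to 7.42% with 1000 bp and 2.77% with 5000 bp flanks, and was 1.53% to 2.95% in single replicates. For bed-2 it moved from 14.5% to 11.1% with 1000 bp and 23.6% with 5000 bp flanks and to 17.0% when ranked by score, and was 6.26% to 9.39% in single replicates. For bed-3 it was 47.9% as reported and 67.5% with 5000 bp flanks, and lay between 33.2% and 54.5% under the other alternatives. For dpy-20 it was 36.3% as reported and 92.6% in the other series list, which has no summit at that gene, and lay between 13.6% and 72.4% under the other alternatives. With 1000 bp flanks the strongest signal of bed-1 was 57.7 in place of 104.5, since the summit 1096 bp upstream drops out; the cause of the other moves was not tested. No paired analysis was possible because there is 1 group and no test. Depth is unknown, 2 replicates and no untagged control were available, and a single-replicate list was not made by comparing replicates with each other.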
